A study of Mus musculus with 8 samples.

Results

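The genes described are 47 genes of DNA replication, chosen by name for their place in S phase, in the count table of a mouse B cell study that holds 24746 genes. The choice was made with earlier results of these data known. They fall into 9 licensing genes, 14 genes of the replicative helicase and its activation, 18 genes of the polymerases and the replication fork, 5 genes of nucleotide supply, and Uhrf1. RNA was sequenced from flow-sorted bone marrow B cells of 8 mice aged 10 to 12 weeks, 4 per group. The control mice had the genotype miR-15a/b+/+ Vav-Cre, and the miR-15 dKO mice (below dKO) had miR-15a/bfl/fl Vav-Cre. Vav-Cre, present in both groups, drives recombination throughout the blood system from its stem cells on, so the loss of both miR-15/16 clusters would not be limited to B cells. By its title, the series asks how these clusters act on early B cell development through the IL-7 receptor.

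A cell copies its DNA once per division. In G1 the origin recognition complex, Cdc6 and Cdt1 load the MCM2-7 helicase onto origins, which is called licensing. The kinase Cdc7 with its activator Dbf4, together with Cdc45 and GINS, then turns the loaded helicase on, and primase, polymerases, the PCNA clamp and its loader replication factor C build the new strands. Most of these genes are known targets of E2F factors, which the retinoblastoma pathway holds back in resting cells. Mature resting B cells copy little DNA, while dividing B cell precursors in the marrow do so rapidly under IL-7. MicroRNAs of the miR-15/16 family are known repressors of cell cycle transcripts, chiefly G1 cyclins and E2F regulators.

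The microRNAs that the floxed clusters encode are shown first, because they define the genotype compared. Dleu2, the host transcript of the chromosome 14 cluster, averaged 17.96 ± 5.95 CPM (SD, n = 4) in controls, where CPM are counts scaled to a common library total, and 90.3 ± 16.3 CPM (SD, n = 4) in the dKO group. Its log2 fold change was 2.33 ± 0.24 (SE), with an edgeR adjusted p of 0.0065. Levels of the mature microRNAs were not analysed here. The capitals mark the seed, bases 2 to 8, which pairs with target transcripts and which is the same in all 3 mature sequences (RefSeq, GRCm38.p6). Mir15a and Mir16-1 lie on chromosome 14 and Mir15b and Mir16-2 on chromosome 3, and both Mir16 genes give the same mature sequence.
miR-15a-5p: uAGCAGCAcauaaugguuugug
miR-15b-5p: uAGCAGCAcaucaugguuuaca
miR-16-5p: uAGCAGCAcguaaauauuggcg

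The 7-base match to this seed was found in the longest annotated 3′ UTR of 6 of the 47 replication genes (12.8%), against 2580 of 10407 tested genes with a 3′ UTR (24.8%). Each site is shown with its flanking bases because these are the members whose longest 3′ UTR holds such a match, with the match in capitals (GENCODE M21, GRCm38).
Cdc6: gaggcctttcctTGCTGCTttt
Orc2: ttgtggcccagcTGCTGCTcct
Gins2: aagagtacagacTGCTGCTata
Cdc7: tccacttactgtTGCTGCTgtg
Rpa1: tggagaaatggcTGCTGCTggc
Rfc1: tcctgaccacatTGCTGCTata
Of these 6 genes, 3 were negative in log2 fold change, and their median was −0.03. The 40 tested members without the match had 37 negative values and a median of −0.30. Among all tested genes, 1224 of 2580 with the match were negative (median 0.02), and 4299 of 7827 without it (median −0.04). The difference between members with and without the match was not tested. A match of letters does not show that a site is used.

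The libraries held 25565090 to 34954230 counts each. Control 2 and control 4 stood apart by markers of follicular B-2 cells, the recirculating conventional B cells. Over 8 such markers their mean log2 CPM was 6.62 and 6.67, against 4.65 to 5.16 in the other 6 libraries. Control 1 stood apart by scaling, with a TMM factor of 0.85 against 0.96 to 1.09 elsewhere. The cells are B1a B cells by the sample labels and pro-B cells by the series text. Cd79a, which encodes a B cell receptor chain, was at 11983 to 15884 CPM across the 8 libraries. Ms4a1, another pan B cell marker, was at 1652 to 4130 CPM. Cd5, of the B-1a markers, was at 4.40 to 8.75 CPM in the controls and 10.8 to 14.6 CPM in the dKO libraries. Of 10 markers of pro-B and pre-B cells, Kit had no count in any library, Rag1, Rag2, Vpreb2 and Erg had counts in control 2 alone, and Dntt and Igll1 lay under 1 CPM. Vpreb1, of the surrogate light chain, was at 1.27 to 2.73 CPM in every library. The summed level of the 10 was 44.9 to 239 CPM in the controls and 20.9 to 49.5 CPM in the dKO libraries. Vpreb3, at 39.4 to 227.7 CPM in the controls and 3.53 to 33.1 CPM in the dKO libraries, made up most of it in the controls. The sum was therefore not taken as a measure of dividing cells. Vpreb3 was highest in control 4 (227.7 CPM) and control 2 (90.7 CPM), the libraries with the high follicular markers. The mitosis genes described below were lowest in the same libraries. Il7r, the IL-7 receptor chain, had the opposite sign, at 3.97 to 9.56 CPM in the controls and 6.98 to 15.4 CPM in the dKO libraries (log2 fold change 0.79, edgeR adjusted p = 0.40). Of these markers 3 were tested and 0 called. The 10 B-1a markers were all positive, with a median log2 fold change of 0.76 and 1 called, the inhibitory receptor gene Ctla4 (1.68, edgeR adjusted p = 0.045). Their mean log2 CPM was 4.604 to 5.63 in the controls and 5.97 to 6.15 in the dKO libraries, without overlap. Their summed level did overlap, at 563 to 1251 CPM in the controls and 1244 to 1639 CPM in the dKO libraries. The 10 myeloid markers summed to 1920 to 6550 CPM in the controls and 1186 to 2995 CPM in the dKO libraries, mostly Lyz2 and Ctss, and 8 were tested and 0 called. Itgam, an integrin gene in that list, had the opposite sign (0.91, adjusted p = 0.24). Of its genes of granulocyte precursors, Mpo and Elane reached at most 0.880 CPM, Prtn3 at most 5.35 CPM and Camp at most 13.8 CPM. S100a8 and S100a9 of the same list reached 15.5 and 42.9 CPM. The 6 plasma cell markers summed to 170 to 206 CPM in the controls and 125 to 213 CPM in the dKO libraries, with 0 called. The 10 erythroid markers summed to 8.55 to 11.2 CPM in the controls and 7.72 to 18.4 CPM in the dKO libraries, with 0 called. The 7 T cell markers summed to 105 to 256 CPM in the controls and 145 to 271 CPM in the dKO libraries. The 7 NK cell markers summed to 14.3 to 169 CPM in the controls and 62.1 to 174 CPM in the dKO libraries. Both sums were lowest in control 3. What part these cells had in the results below was not tested. In such bulk libraries, fewer dividing cells and less RNA of a gene per cell cannot be told apart.

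DNA replication transcripts lay lower in the dKO libraries in most genes, by small amounts, and no single gene passed the edgeR test. Of the 46 members tested, 40 were negative in log2 fold change of dKO over control (87.0%), and the median was −0.29. Over all 11363 genes tested, 52.3% had a negative value and the median was −0.02. Because the members were chosen with earlier results of these data known, the shares of members given here were not tested against those of all genes. The edgeR quasi-likelihood test, with p adjusted over all genes, called 0 members at 0.05, where it called 0.0264% of all genes lower and 0.0616% higher. DESeq2 called 1 of the 46, where it called 2.83% of all genes, and limma voom called 2, where it called 2.48%. At an unadjusted p under 0.05, 12 members lay lower (26.1%, against 4.84% of all genes) and 0 lay higher (against 5.98%). In 8 members (17.4%) every dKO library lay below every control, against 2.96% of all genes, and in 0 members did every dKO library lie above, against 4% of all genes. Mcm10, which helps to start the helicase, was the member that did not pass the filter on low counts. It stood at 0.117 to 1.02 CPM in the controls and 0.103 to 0.272 CPM in the dKO libraries.

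**Figure D1:**
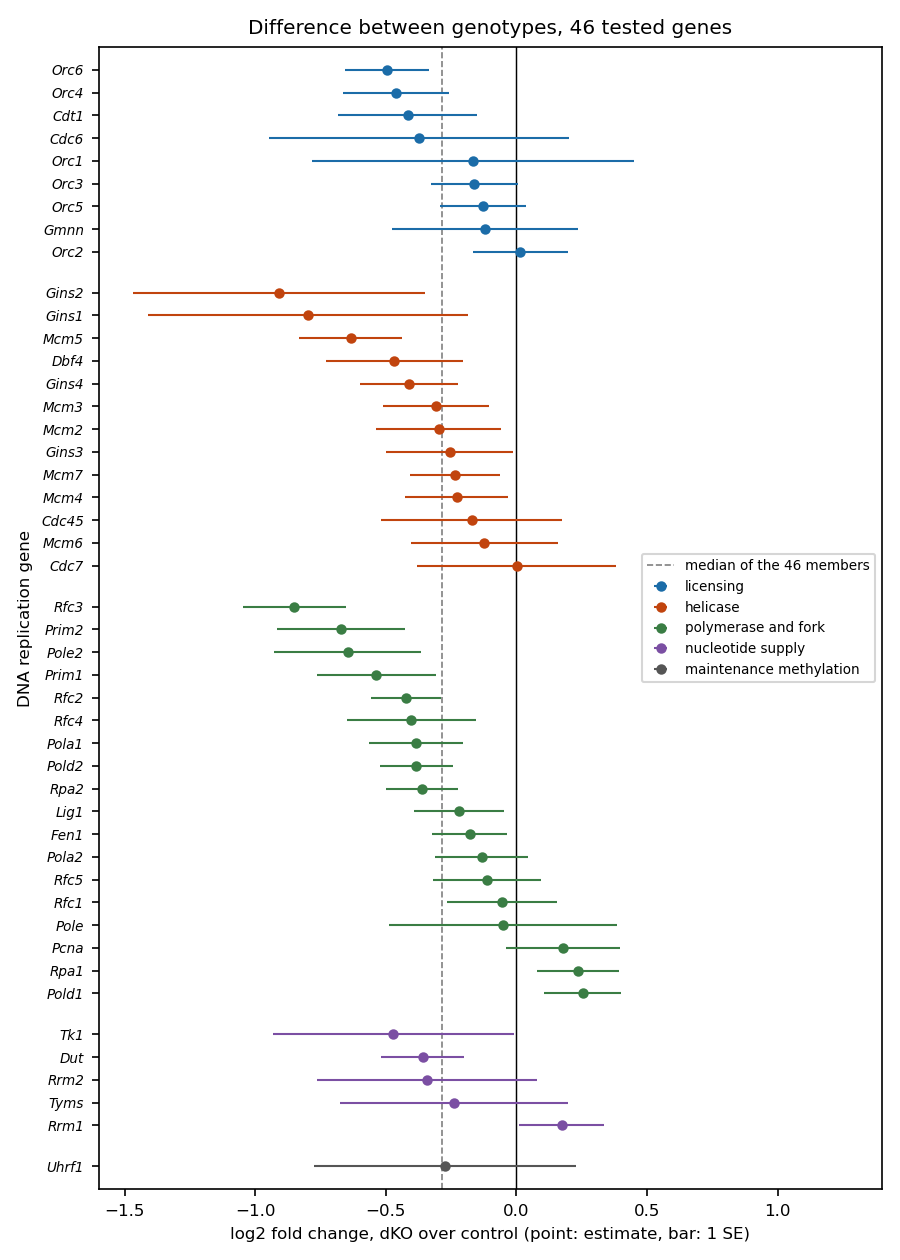
Log2 fold change of dKO over control for the 46 tested DNA replication genes, grouped by role, as estimates with 1 standard error from the edgeR fit (4 libraries per group). The dashed line is their median of −0.29, and 40 of the 46 points lie left of 0.

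The size of the difference depended on which controls were counted. Without control 1, 32 of 46 members were negative and the median was −0.18. Without control 2 and control 4, the libraries with the high follicular markers, 39 of 47 were negative and the median was −0.46. Summed over the 47 members, the level was 1552 CPM in control 1 and 1143 to 1211 CPM in the other 3 controls. The dKO libraries lay at 983 to 1149 CPM, so that control 2 lay within the dKO range. As a share of all counts, the 47 genes took 0.1201% to 0.1315% in the controls and 0.1032% to 0.1208% in the dKO libraries. Control 1 was the highest library for 20 of the 46 members and dKO 3 the lowest for 19.

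**Figure D2:**
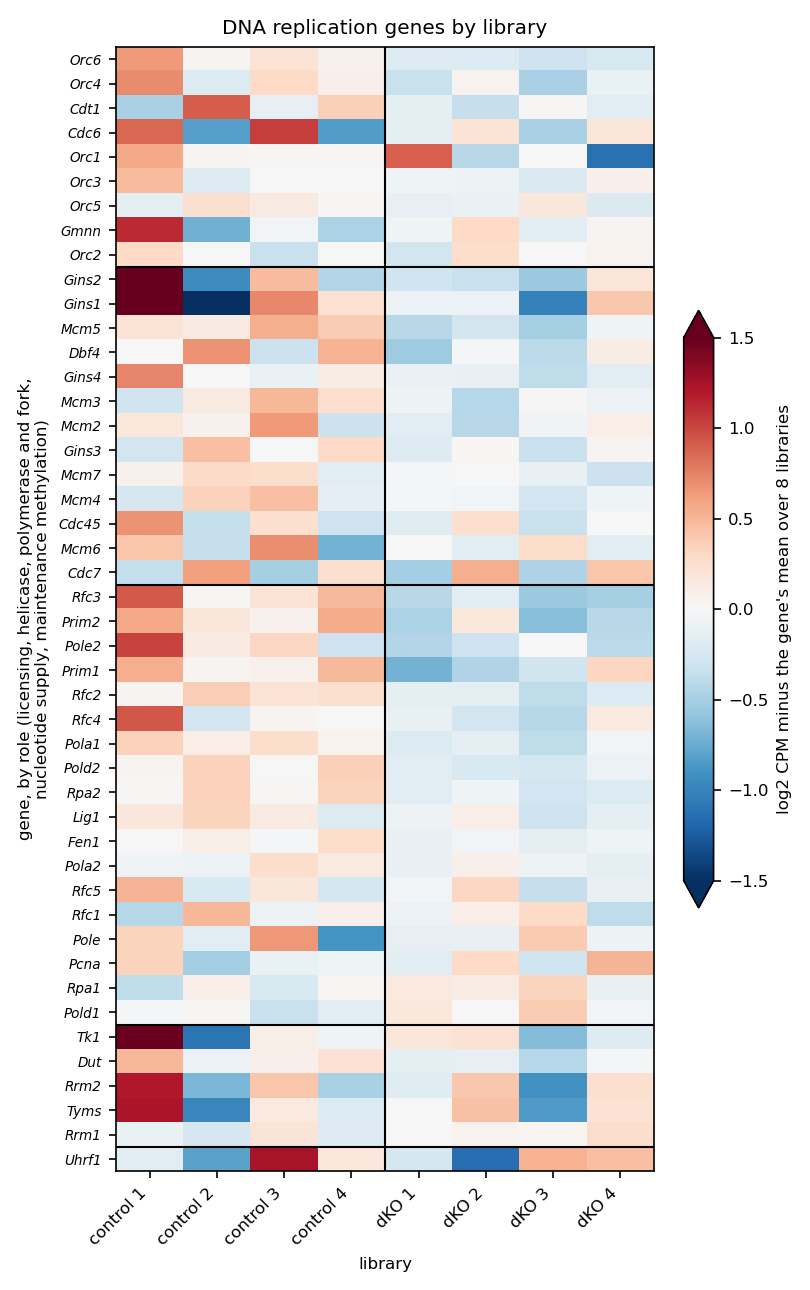
Log2 CPM of each tested DNA replication gene minus its mean over the 8 libraries, with genes in rows by role and libraries in columns; colours saturate at 1.5. Control 1 is the highest library for 20 of the 46 genes and dKO 3 the lowest for 19, and Gins2 and Gins1 have the widest spread of these genes in CPM relative to their means.

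Levels per length differed widely among the members. Divided by exon length (bases in any annotated exon of the gene), the highest mean over the 8 libraries was that of Gins4, a GINS subunit, at 65.0 CPM per kilobase. Pcna, the sliding clamp of the polymerases, followed at 58.6 and Dut, which removes dUTP from the nucleotide pool, at 47.6 CPM per kilobase. The 6 genes of the MCM2-7 helicase, whose proteins form 1 ring, all lay between 1.07 and 3.77 CPM per kilobase. The other 3 GINS genes lay at 1.87 to 4.35 CPM per kilobase, far below Gins4, although the 4 proteins form 1 complex. Lowest were Mcm10 at 0.0400, Pole, the catalytic subunit of polymerase epsilon, at 0.129, Orc1 at 0.162 and Cdc6 at 0.191 CPM per kilobase.

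Among the 9 licensing genes 8 were negative, and their median log2 fold change was −0.17. Orc6, the smallest subunit of the origin recognition complex, was at 45.4, 30.0, 33.6 and 30.5 CPM in controls 1 to 4 and at 25.4, 25.4, 23.5 and 24.6 CPM in dKO 1 to 4. All 4 dKO libraries lay below all 4 controls, and control 1 was the highest. The log2 fold change was −0.50 ± 0.16 (SE; adjusted p = 0.25 by edgeR). It was −0.33 without control 1 and −0.67 without control 2 and control 4. Exons of Orc6 overlap those of Vps35 on the other strand by up to 171 bases, and whether the counting used the strand was not given in the sources used here. Vps35, an endosomal sorting gene, had a log2 fold change of −0.08.

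Orc4, another subunit of that complex, was at 54.3, 28.8, 41.0 and 35.0 CPM in the controls and at 26.3, 34.5, 23.7 and 31.0 CPM in the dKO libraries. The groups overlapped, and the log2 fold change was −0.46 ± 0.20 (SE; adjusted p = 0.44 by edgeR). Orc3 was at 38.4, 24.2, 27.7 and 27.8 CPM in the controls and at 26.5, 26.2, 23.7 and 29.1 CPM in the dKO libraries. Control 1 was again the highest, and the log2 fold change of −0.16 ± 0.17 (SE, adjusted p = 0.81) was 0.00 without it. The other 3 subunits, Orc1, Orc2 and Orc5, lay between −0.17 and 0.02 on the log2 scale, and Orc1 lay at only 0.204 to 1.02 CPM. Cdc6, the loading ATPase, was also scarce, at 0.469 to 1.90 CPM. Exons of Orc2 overlap those of Nif3l1 (31.8 CPM) on the other strand by up to 686 bases.

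Cdt1, which brings the helicase to the origin, and Gmnn, which encodes its inhibitor geminin, had different patterns over the libraries. Cdt1 was at 9.73, 25.6, 12.6 and 17.5 CPM in the controls and at 12.3, 10.7, 13.8 and 12.2 CPM in the dKO libraries. Its high controls were control 2 and control 4, and its log2 fold change of −0.42 ± 0.27 (SE; adjusted p = 0.64 by edgeR) was 0.14 without those libraries. Gmnn was at 94.3, 26.3, 42.2 and 31.1 CPM in the controls and at 41.5, 53.4, 39.0 and 44.5 CPM in the dKO libraries. Control 1 was far above the rest. The log2 fold change of −0.12 ± 0.36 (SE, adjusted p = 0.95) was 0.44 without control 1 and −0.61 without control 2 and control 4.

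**Figure D3:**
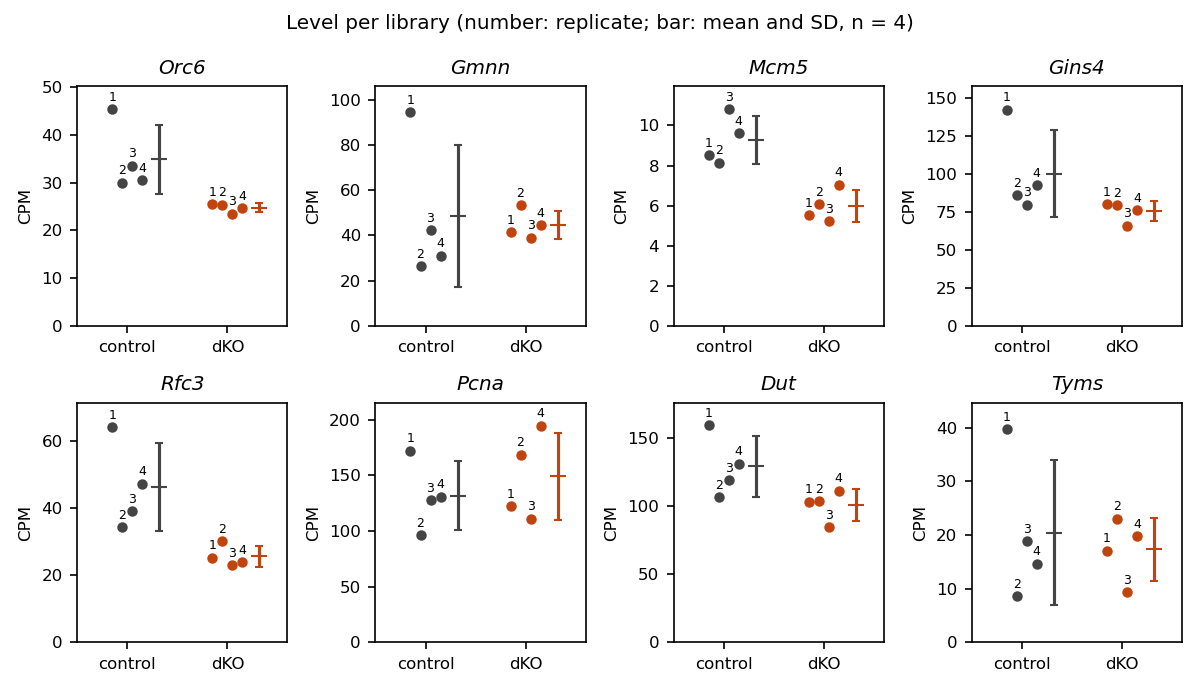
CPM per library of 8 DNA replication genes, with the replicate number above each point and the mean and SD of each group (n = 4) beside it; all axes start at 0. Orc6, Mcm5 and Rfc3 do not overlap between groups, while Gmnn, Pcna and Tyms do, and control 1 is the highest control for all but Mcm5.

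All 6 genes of the MCM2-7 helicase had a negative log2 fold change, from −0.64 to −0.12, and none was called. Mcm5 had the lowest of the 6 values. It stood at 8.53, 8.15, 10.8 and 9.62 CPM in the controls and at 5.52, 6.09, 5.22 and 7.05 CPM in the dKO libraries. The groups did not overlap, and the log2 fold change was −0.64 ± 0.20 (SE; adjusted p = 0.24 by edgeR). It was −0.66 without control 1 and −0.69 without control 2 and control 4. It was called by limma voom alone among the tools (−0.73, adjusted p = 0.049). Mcm3 had −0.31 ± 0.20, Mcm2 −0.30 ± 0.24, Mcm7 −0.24 ± 0.17, Mcm4 −0.23 ± 0.20 and Mcm6 −0.12 ± 0.28 (log2 fold change ± SE, adjusted p = 0.65 to 0.93), all with overlapping groups. Mcm7 also hosts the genes of miR-25 and miR-93 in annotated transcripts that overlap its exons on the same strand. On the other strand, exons of Ap4m1 (2.72 CPM) and Cops6 (272 CPM) overlap those of Mcm7 by up to 247 and 64 bases.

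The GINS complex and Cdc45 join MCM2-7 to form the active helicase. All 4 GINS genes had a negative log2 fold change, from −0.91 to −0.26. Gins2 was at 36.3, 4.98, 13.4 and 7.07 CPM in the controls and at 7.83, 7.61, 6.53 and 10.9 CPM in the dKO libraries. The dKO libraries lay inside the range of the controls, and control 1 was far above the rest. The log2 fold change of −0.91 ± 0.56 (SE; adjusted p = 0.63 by edgeR) was −0.04 without control 1 and −1.59 without control 2 and control 4. Gins1 had a similar spread, at 17.4, 1.35, 8.66 and 6.13 CPM in the controls and 2.5 to 6.9 CPM in the dKO libraries, with −0.80 ± 0.61 (SE, adjusted p = 0.72) and −0.15 without control 1. The exons of Gins2 overlap those of Gse1 on the other strand by up to 2758 bases. Gse1 had a log2 fold change of −0.17.

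Gins4 was at 142.3, 85.9, 79.8 and 92.7 CPM in the controls and at 80.2, 79.2, 65.9 and 75.9 CPM in the dKO libraries. Only dKO 1 lay above a control, by less than 1 CPM over control 3. The log2 fold change was −0.41 ± 0.19 (SE; adjusted p = 0.46 by edgeR), and −0.18 without control 1. Cdc45 stood at 1.75 to 3.64 CPM in the controls and 1.79 to 2.71 CPM in the dKO libraries. Exons of Cdc45 overlap those of Ufd1 (63.3 CPM) on the other strand by up to 164 bases. The helicase kinase Cdc7 was level between the groups on average, at 0.00 ± 0.38 on the log2 scale (SE, adjusted p = 0.999). Its activator Dbf4 was at 7.62, 12.3, 6.12 and 11.1 CPM in the controls and at 5.27, 7.50, 5.77 and 8.28 CPM in the dKO libraries. Here too control 2 and control 4 were highest. The log2 fold change of −0.47 ± 0.26 (SE, adjusted p = 0.58) was −0.03 without them.

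Of the 18 polymerase and fork genes 15 were negative, the median log2 fold change was −0.29, and 6 of the 8 members without overlap belonged to this group. All 5 genes of replication factor C, the complex that loads PCNA onto DNA, were negative. Rfc3 had the smallest p of all members. It was at 64.2, 34.4, 39.2 and 47.4 CPM in the controls and at 25.3, 30.2, 23.1 and 24.0 CPM in the dKO libraries. Every dKO library lay below every control. The log2 fold change was −0.85 ± 0.20 (SE; adjusted p = 0.12 by edgeR), with −0.64 without control 1 (adjusted p = 0.10) and −1.01 without control 2 and control 4 (0.068). DESeq2 called it (−0.86, adjusted p = 0.013), as did limma voom (−0.78, 0.023).

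Rfc2 was at 100.1, 125.8, 112.0 and 115.2 CPM in the controls and at 89.1, 88.7, 75.0 and 84.9 CPM in the dKO libraries. The groups did not overlap, at −0.42 ± 0.13 on the log2 scale (SE; adjusted p = 0.24 by edgeR). Its exons overlap those of Lat2, a signalling adaptor gene on the other strand, by up to 952 bases. Lat2 had 244.9 CPM in the dKO libraries against 294.4 CPM in the controls, and whether its reads entered the Rfc2 counts was not tested. Rfc4 had −0.40 ± 0.25, Rfc5 −0.11 ± 0.21 and Rfc1, the large subunit, −0.05 ± 0.21 (log2 fold change ± SE, adjusted p = 0.63 to 0.96). Exons of Rfc4 overlap those of Eif4a2 (115 CPM) on the other strand by up to 186 bases. Those of Rfc5 overlap Wsb2 (13.6 CPM), also on the other strand, by up to 499 bases.

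The 4 genes of polymerase alpha and primase, which lay the RNA and DNA primers, were all negative. Prim2 was at 9.22, 6.97, 6.47 and 9.15 CPM in the controls and at 4.44, 6.94, 3.95 and 4.63 CPM in the dKO libraries. Only dKO 2 reached the controls. Its log2 fold change was −0.67 ± 0.24 (SE; adjusted p = 0.33 by edgeR), and the catalytic subunit gene Prim1 had −0.54 ± 0.23 (adjusted p = 0.42). Pola1, the catalytic subunit of polymerase alpha, was at 11.3, 9.50, 10.7 and 9.18 CPM in the controls and at 7.69, 8.02, 6.80 and 8.62 CPM in the dKO libraries. The groups did not overlap (−0.39 ± 0.18, adjusted p = 0.47). Pola2, its accessory subunit, had −0.13 ± 0.18 (adjusted p = 0.86).

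Polymerases delta and epsilon copy the lagging and the leading strand, and 3 of their 4 genes among the members were negative. Their other subunit genes, in the list of other replication genes below, had values of both signs. Pold2, a small subunit of polymerase delta, was at 38.3, 46.97, 37.1 and 47.5 CPM in the controls and at 33.2, 31.5, 30.8 and 34.8 CPM in the dKO libraries. There was no overlap, and the log2 fold change was −0.38 ± 0.14 (SE; adjusted p = 0.33 by edgeR). It was −0.21 without control 2 and control 4, its highest libraries. Pold1, the catalytic subunit of the same enzyme, had the opposite sign, at 50.6, 51.9, 40.4 and 45.4 CPM in the controls and 57.1, 51.4, 66.3 and 49.7 CPM in the dKO libraries (0.25 ± 0.15, adjusted p = 0.60). The groups overlapped. Pole2 of polymerase epsilon had −0.65 ± 0.28 (adjusted p = 0.44), and −0.34 without control 1.

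Replication protein A, which coats single-stranded DNA, had genes of opposite sign. Rpa2 was at 48.6, 60.9, 48.8 and 60.6 CPM in the controls and at 43.2, 46.01, 39.5 and 41.7 CPM in the dKO libraries, without overlap (−0.36 ± 0.14, SE, edgeR adjusted p = 0.36). It was −0.19 without control 2 and control 4. Rpa1, the large subunit, had 0.24 ± 0.16 (adjusted p = 0.66). Of the genes that join Okazaki fragments, the flap nuclease gene Fen1 had groups that did not overlap but a small difference (−0.18 ± 0.14, adjusted p = 0.73). Exons of Fen1 overlap those of Gm10143 by up to 1909 bases and of Tmem258 (86.2 CPM) by up to 75 bases, both on the other strand. Whether their reads entered the Fen1 counts was not tested. The ligase gene Lig1 had −0.22 ± 0.17 (adjusted p = 0.73). Pcna, with the highest CPM of all members, was at 172.2, 96.6, 128.1 and 131.0 CPM in the controls and 122.7, 168.8, 111.1 and 194.7 CPM in the dKO libraries. The groups overlapped, although dKO 4 was above every control and control 2 below every dKO library, at 0.18 ± 0.22 (adjusted p = 0.84).

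Of the 5 genes of nucleotide supply 4 were negative, with a median log2 fold change of −0.34, and all 5 had overlapping groups. Dut was at 159.1, 106.7, 119.2 and 131.1 CPM in the controls and at 103.3, 103.7, 84.3 and 111.3 CPM in the dKO libraries. One dKO library, dKO 4, lay above the lowest control, and the log2 fold change was −0.36 ± 0.16 (SE; adjusted p = 0.44 by edgeR). Tyms, the thymidylate synthase gene, was at 39.7, 8.55, 18.8 and 14.7 CPM in the controls and at 17.1, 23.0, 9.41 and 19.8 CPM in the dKO libraries. Control 1 was the highest of all and control 2 the lowest, so the controls spanned the dKO range.

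Tk1, thymidine kinase, and Rrm2, the S phase subunit of ribonucleotide reductase, were likewise highest in control 1. Tk1 was at 19.2, 3.17, 7.28 and 6.54 CPM in the controls and at 7.77, 8.02, 4.33 and 5.96 CPM in the dKO libraries (log2 fold change −0.47 ± 0.46, SE, edgeR adjusted p = 0.80). Rrm2 was at 17.6, 4.71, 10.2 and 5.45 CPM in the controls and at 6.72, 10.1, 4.05 and 9.06 CPM in the dKO libraries (−0.34 ± 0.42, adjusted p = 0.84). The controls spanned the dKO range in Tk1, and all but the lowest dKO library in Rrm2. Without control 1 the log2 fold changes of Tyms, Tk1 and Rrm2 were 0.31, 0.21 and 0.15, and without control 2 and control 4 they were −0.75, −1.02 and −0.89. Rrm1, the large subunit of the same enzyme, was at 14.2, 12.8, 17.4 and 13.4 CPM in the controls and at 15.4, 15.8, 15.6 and 18.4 CPM in the dKO libraries, with 0.17 ± 0.16 (adjusted p = 0.79). Uhrf1, which carries DNA methylation over to the new strand, was at 1.82, 1.14, 4.89 and 2.29 CPM in the controls and at 1.71, 0.891, 2.96 and 2.83 CPM in the dKO libraries. Control 3 was the highest and the groups overlapped (−0.27 ± 0.50, adjusted p = 0.91).

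The other replication genes, a list of 44 that includes fork protection, histone chaperones and further nucleotide enzymes, had 31 of 42 tested genes with a negative value. Their median log2 fold change was −0.21, and 0 were called. At an unadjusted p under 0.05, 5 of the 42 lay lower (11.9%, against 4.84% of all genes) and 1 of the 42 higher (against 5.98%). DESeq2 called 0 of the 42 and limma voom 1, where they called 2.83% and 2.48% of all genes. Without control 2 and control 4 the median was −0.06, with 26 of 43 negative. Nasp, a histone chaperone gene, had −0.48 ± 0.17 (SE; adjusted p = 0.31 by edgeR), and Slbp, which binds histone mRNA, −0.39 ± 0.14 (0.32). Mcm8, a helicase gene used mainly in repair, had the opposite sign, at 1.61 ± 0.60 (0.34). It stood at 0.146 to 1.55 CPM in the controls and 1.48 to 3.19 CPM in the dKO libraries, with overlap.

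Most mitosis genes had the opposite sign. Of 22 tested, 16 were positive, the median log2 fold change was 0.29, and 0 were called. At an unadjusted p under 0.05, 3 of the 22 lay higher, where 5.98% of all genes did, and 0 lower, where 4.84% did. In 4 of the 22 every dKO library lay above every control, against 4% of all genes. In 0 of the 22 did every dKO library lie below, against 2.96%. DESeq2 called 3 of the 22, where it called 2.83% of all genes, and limma voom called 0. Prc1, a spindle midzone gene, was at 1.31, 1.82, 3.10 and 1.496 CPM in the controls and at 4.55, 7.58, 3.33 and 4.80 CPM in the dKO libraries. The groups did not overlap (1.39 ± 0.36, SE, edgeR adjusted p = 0.15). Tpx2, of spindle assembly, had 1.17 ± 0.32 (adjusted p = 0.18), the proliferation marker Mki67 1.92 ± 0.54 (0.19) and the mitotic kinase gene Plk1 0.84 ± 0.46 (0.56). Mki67 lay at 0.471 to 2.18 CPM in the controls and 1.94 to 8.02 CPM in the dKO libraries, with overlap. Plk1 lay at 0.563 to 0.762 CPM in the controls and 0.825 to 1.70 CPM in the dKO libraries.

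This contrast depended on the control libraries. As a mean log2 CPM over the 22 mitosis genes, control 2 (0.90) and control 4 (1.03) were lowest, against 1.68 and 1.88 in control 3 and control 1 and 1.63 to 2.25 in the dKO libraries. Without control 2 and control 4 the mitosis genes had 11 of 22 positive values and a median of −0.04, while the replication genes had their median of −0.46. Without control 1 the medians were 0.74 and −0.18. In each of these fits the replication genes had the lower median, but the difference between the 2 lists was not tested.

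**Figure D4:**
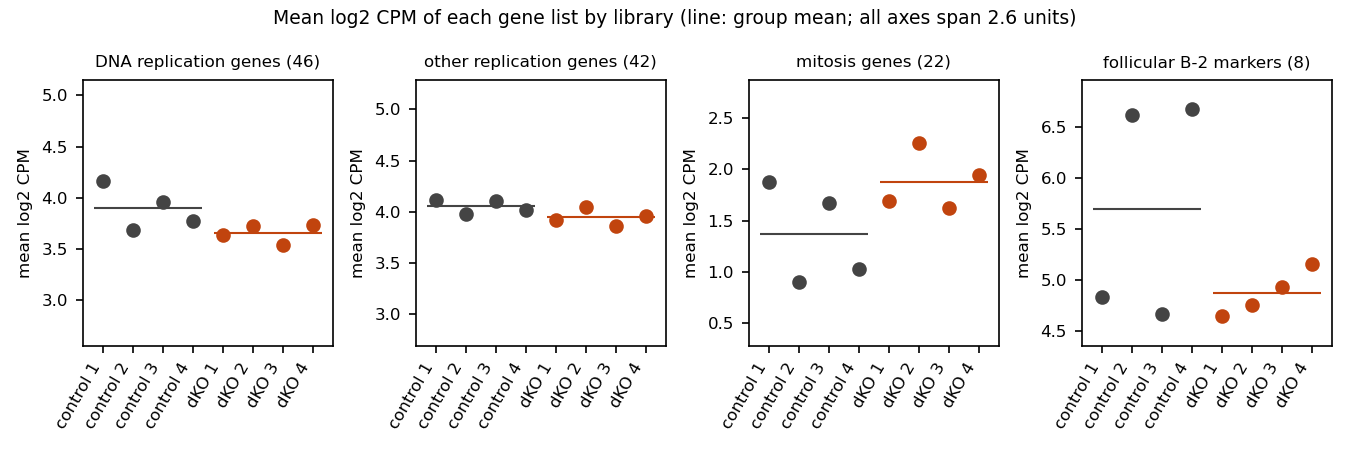
Mean log2 CPM per library of 4 gene lists (number of genes in brackets), with a line at each group's mean; the 4 axes span the same number of log2 units. The replication genes lie lower in the dKO libraries than in control 1, control 3 and control 4, while control 2 lies within the dKO range. The mitosis genes are lowest in control 2 and control 4, and those 2 controls have the highest follicular B-2 markers.

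Promoters of the replication genes often held the recognition word of E2F factors. The search covered 250 bases before to 50 bases after the gene start (RefSeq, GRCm38.p6), for TTTCCCGC, TTTCGCGC, TTTGCCGC or TTTGGCGC on either strand, where matches may overlap. A promoter sequence was matched for 39 of the 47 members. Of these 15 held the E2F word (38.5%), against 432 of 9019 tested genes with a promoter (4.79%) and 2.61% of all genes in the promoter table. The CHR word TTTGAA, known from promoters of genes active in G2 and mitosis, was in 7 of the 39 (17.9%) and in 14.5% of tested genes. In the mitosis genes the shares were the other way round, with the E2F word in 1 of 18 (5.56%) and the CHR word in 13 of 18 (72.2%).

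**Figure D5:**
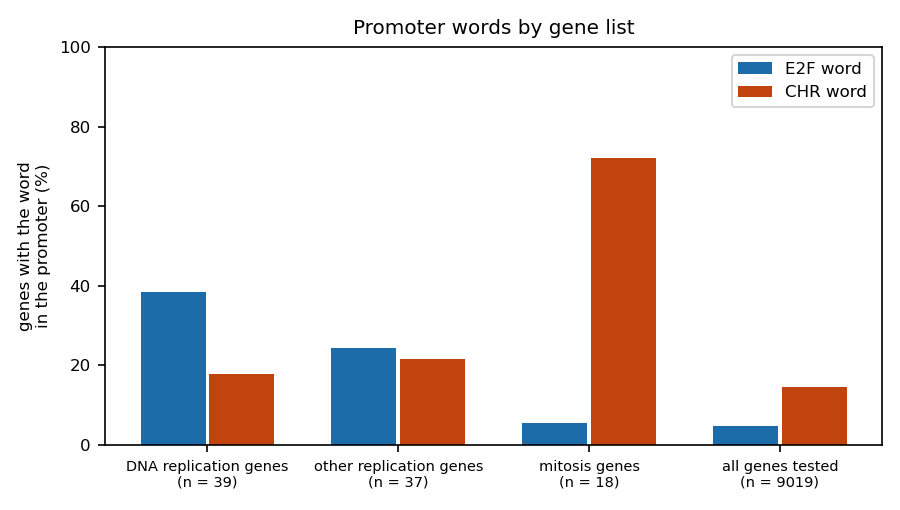
Share of genes whose promoter holds the E2F word or the CHR word, for 3 gene lists and all tested genes with a promoter (n under each pair of bars). The E2F word is in 38.5% of the DNA replication genes and the CHR word in 72.2% of the mitosis genes.

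The medians of members with and without the word lay close together, and their difference was not tested. The 15 members with it had 14 negative log2 fold changes and a median of −0.27, and the 23 tested members whose promoter lacks it had 18 and −0.24. Among all tested genes the medians were −0.03 with the word and −0.02 without it. The promoters of Rfc3 and Mcm5 are shown because these genes were the members called by any tool, and that of Pold1 because it holds the word while the gene lay higher in the dKO libraries. The sequences run in the direction of transcription, with the E2F words in capitals.
Rfc3, chr5:151651159-151651458, minus strand: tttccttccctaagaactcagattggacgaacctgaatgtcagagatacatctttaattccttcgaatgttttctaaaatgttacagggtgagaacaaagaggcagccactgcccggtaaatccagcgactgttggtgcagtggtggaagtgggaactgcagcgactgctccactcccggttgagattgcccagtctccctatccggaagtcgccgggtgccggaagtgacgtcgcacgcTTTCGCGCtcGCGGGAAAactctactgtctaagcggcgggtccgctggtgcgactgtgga
Mcm5, chr8:75109259-75109558, plus strand: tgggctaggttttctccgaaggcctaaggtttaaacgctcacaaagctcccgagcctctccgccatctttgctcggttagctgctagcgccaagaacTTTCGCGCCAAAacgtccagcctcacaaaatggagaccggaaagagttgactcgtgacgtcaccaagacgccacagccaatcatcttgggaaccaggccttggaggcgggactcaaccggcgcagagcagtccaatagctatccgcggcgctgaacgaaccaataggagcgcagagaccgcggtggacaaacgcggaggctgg
Pold1, chr7:44548766-44549065, minus strand: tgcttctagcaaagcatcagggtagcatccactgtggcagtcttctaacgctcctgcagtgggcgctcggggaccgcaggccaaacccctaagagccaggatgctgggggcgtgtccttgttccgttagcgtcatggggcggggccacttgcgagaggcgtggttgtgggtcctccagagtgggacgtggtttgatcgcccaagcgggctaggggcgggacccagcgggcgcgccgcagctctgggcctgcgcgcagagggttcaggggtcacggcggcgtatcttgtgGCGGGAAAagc
In Rfc3 the first of 2 words begins 10 bases before the gene start, in Mcm5 2 overlapping words begin 153 and 149 bases before it, and in Pold1 the single word begins 39 bases after it. A word in a promoter does not show that a factor binds there.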

How the data were processed

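RNA of sorted bone marrow B cells was amplified by SMART-seq, per the labels' protocols, and Trimmomatic, STAR and featureCounts on GRCm39 are named in the submitters' processing notes; versions, annotation and strand setting were not given in the sources used here. Deposited values were unscaled counts per gene in 1 table, of which 3 unnamed summary columns were not used. Titles gave each sample's genotype, and sample descriptions its column. Nothing says that libraries were made in more than 1 batch, and the series text gives 4 mice for each genotype. Replicates differed by a chi-square of 31.3 to 321 per degree of freedom, so none was a duplicate. Among counts under 20, 72.7% to 77.3% were even, as when both mates of a pair are counted.

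The filter was filterByExpr (11363 genes left), the scaling TMM and the test that of edgeR 4.0.16 in R 4.3.3 (quasi-likelihood F test, robust, genotype the only term, Benjamini-Hochberg over all genes tested). The script was tested on simulated data. CPM use TMM-scaled totals, with a prior count of 2 on the log2 scale; 3 counts correspond to 0.0854 to 0.111 CPM and cover only counting error. The SE is the fold change divided by the root of F. Members may all be named; values for each library went to the 4 members with the smallest p and the most abundant in each role, and other members so shown were chosen after their values were seen. The members and lists were chosen with earlier results of these data known. Exon lengths, 3′ UTRs and overlaps came from GENCODE M21 (GRCm38), another build than that of the counts. Alternatives were DESeq2 1.42.0, voom of limma 3.58.1 with quality weights, RLE or upper quartile scaling, other filters, an adjusted p under 0.1, a replicate block, halved counts and leaving out libraries. Pcna and Tyms have annotated pseudogene copies (Pcna-ps1, Pcna-ps2, Tyms-ps) that may have shared reads. The named gene rule also covers a gene outside the members that is not reported here.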

Additional observations from a re-analysis of the deposited data

Results flagged for a closer look

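In 4 of 94 groups of 4 libraries (47 members, both genotypes), the highest or lowest library was separated from its nearest neighbour by more than Dixon's limit allows; chance gives about 1 in 20. Orc1 was at 0.802 CPM in control 1, where the other controls lay at 0.528 to 0.539 CPM. Mcm4 was at 10.9 CPM in dKO 3, below the 12.8 to 13.2 CPM of the other dKO libraries. Pole was at 1.82 CPM in dKO 3, above 1.25 to 1.29 CPM in the others. Rrm1 was at 18.4 CPM in dKO 4, above 15.4 to 15.8 CPM in the others.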

How the results depend on the processing

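No member was called in 16 of the 18 alternatives; DESeq2 called 1 (Rfc3) and limma voom 2 (Rfc3 and Mcm5), both tools calling more genes overall (322 and 282 against 10). The number of genes called was 40 without a filter, 75 at an adjusted p under 0.1, 59 without control 2 and control 4, and 4 to 98 with 1 library left out (98 without control 1, 30 without control 3, 18 without control 2, and 4 each without dKO 2, dKO 3 or dKO 4). The members' median was −0.46 without control 2 and control 4 and −0.35 to −0.18 with 1 library left out. With RLE and upper quartile scaling 40 of 46 members were negative, as with TMM, and with limma voom 34 of 46, with a median of −0.23. A replicate block gave 0 members and 9 genes called, with 39 of 46 members negative; same-numbered libraries correlated at −0.07 to 0.15 in their deviations from group means, so the numbers were not taken as pairs.

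Of 46 members, 28 kept their direction in every alternative. The signs of small differences changed with limma voom for Mcm6 (0.13), Cdc6 (0.071), Gmnn (0.21), Orc1 (0.23), Orc2 (−0.034), Cdc7 (−0.25), Rfc5 (0.024), Pole (0.20), Tyms (0.056) and Tk1 (0.040). They changed with the replicate block for Gmnn (0.067), Cdc7 (−0.0045) and Pole (0.036), with halved counts for Cdc7 (−0.0055), and without control 2 and control 4 for Cdt1 (0.14), Gins3 (0.029), Pcna (−0.0054) and Rfc1 (0.24). With 1 library left out, the log2 fold change ranged from −0.30 to 0.085 for Cdc45, −0.63 to 0.0013 for Cdc6, −0.20 to 0.24 for Cdc7, −0.32 to 0.44 for Gmnn, −0.32 to 0.13 for Mcm6, −0.72 to 0.090 for Orc1, −0.083 to 0.14 for Orc2, −0.25 to 2.8e-04 for Orc3, −0.28 to 0.21 for Pole, −0.17 to 0.13 for Rfc1, −0.24 to 0.071 for Rfc5, −0.56 to 0.15 for Rrm2, −0.75 to 0.21 for Tk1, −0.49 to 0.31 for Tyms and −0.52 to 0.26 for Uhrf1. The cause was not tested. Members near 1 CPM (Cdc6, Orc1, Pole, Mcm10) are limited by depth, and Mcm8, Mki67 and Plk1 were likewise near 1 CPM in the controls.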
